A study of Mus musculus with 11 samples.

Results

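Mx1+Nes+ BM-SSCs were compared with CD51+ BMSCs, both sorted from mouse bone marrow as skeletal stem or stromal cells, to ask whether a reporter pair and a surface integrin pick out the same cells. The comparison rests on 4 of the 11 arrays of the study, 2 per population, chosen by the titles that name these populations, and the other 7 arrays served to estimate the spread and to place single genes. BM-SSCs came from mice carrying Mx1-Cre, a Rosa-Tomato reporter and a Nestin-GFP transgene. The mice were irradiated with 9.5 Gy at 4 weeks of age, transplanted with wild-type marrow and, 6 to 8 weeks later, given pIpC at 25 mg/kg every other day over 10 days, which induces Cre from the interferon-responsive Mx1 promoter. The cells were then sorted as negative for CD45, CD31 and Ter119, positive for CD105 and CD140a, and positive for both reporters. The titles of the CD51+ arrays give only the absence of CD45, CD31 and Ter119 and the presence of CD51, whereas the study's account of the sort adds CD105 and CD140a, and the genotype, age and treatment of the mice behind them are not given in the sources used here. Whatever separates irradiated, transplanted and pIpC-treated mice from those mice therefore cannot be told apart from the sort. Each RNA sample came from 2 or 3 male and female mice. The methods call the 2 arrays biological repeats without saying whether separate mice stood behind each, so p-values cover only array-to-array spread, which may be technical.

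Skeletal stem and stromal cells of the marrow line its vessels, secrete factors that hold blood stem cells, such as the chemokine Cxcl12, and give rise to bone, fat and cartilage cells. Nestin is an intermediate filament protein of neural and other progenitors, and the GFP used here is driven by a Nestin promoter transgene and does not report the endogenous gene itself. CD51 is the integrin alpha V chain (Itgav), which many mesenchymal and some myeloid cells carry. Mx1-Cre recombines wherever interferon signalling reaches, blood cells included, and the marrow transplant replaces most blood cells of the host with cells that lack the reporters.

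BM-SSC array 2 stood apart from the other 3 arrays of the comparison, so all values are given per array. Its values spread over an interquartile range of 1.98 log2 units, against 3.15 on BM-SSC array 1 and 3.49 and 3.47 on the CD51+ arrays. The bacterial control bioB, spiked in at hybridization, read 12.31 there and between 6.51 and 9.25 on the other 3 arrays, and the signal at the 3' end of the Actb transcript exceeded that at its 5' end by 2.18 log2 units, against 0.83 to 1.26. Across probe sets, which are not independent replicates, the BM-SSC arrays correlated at a Pearson r of 0.771 and the CD51+ arrays at 0.993, while BM-SSC array 1 correlated with both CD51+ arrays at 0.951. Within a population the root mean square SD came to 0.998 for BM-SSCs, compared with 0.187 for CD51+ BMSCs.

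None of the genes behind the sort passed the test. Nes read 6.17 and 7.08 on the BM-SSC arrays and 5.83 and 5.66 on the CD51+ arrays, so the groups did not overlap, but the difference of 0.88 log2 units (standard error 0.44) did not pass limma's test (adjusted p = 0.461). Itgav read 10.50 and 7.39 in BM-SSCs and 10.10 and 10.27 in CD51+ BMSCs, which places BM-SSC array 1 above both CD51+ arrays and array 2 below them. Other probe sets of Itgav, at lower levels, ran in different ways and did not pass. One read 4.56 and 7.65 against 2.61 and 3.19, and another 5.04 and 4.16 against 4.86 and 5.16. Pdgfra, which encodes CD140a, read 10.95 and 6.90 against 11.44 and 11.79, and Eng, which encodes CD105, read 7.63 and 7.57 against 7.09 and 7.39. Ptprc encodes CD45, against which both populations were sorted. It read 7.42 and 4.90 in BM-SSCs and 10.23 and 10.17 in CD51+ BMSCs, beside 12.06 and 12.05 in CD45+ cells, and did not pass (adjusted p = 0.184). Pecam1, which encodes CD31, read 5.09 and 5.97 against 3.75 and 3.98. Both populations held Itgav and Pdgfra RNA, with Nes at low levels in each, and the CD51+ arrays read Ptprc within 2 log2 units of CD45+ cells. Of the 12 measured genes of the list of sort markers and reporters, 0 passed limma's test, and without array 2 of both SSC populations 6 passed as higher.

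Limma's test found that 12 of 45037 probe sets (0.0266%) were higher in BM-SSCs and 266 (0.591%) were lower, at a Benjamini-Hochberg adjusted p under 0.05. With 1 probe set per gene, chosen as the brightest over all arrays, 5 of 18193 genes (0.0275%) were higher and 146 (0.803%) lower. Every one of the 151 genes was free of overlap between the arrays of the populations, and the nearest arrays lay at least 1.68 log2 units apart among the lower genes and 1.77 among the higher genes. Selection by a test on these same arrays favours such genes, so the lack of overlap is not separate support. The fit shares 1 estimate of spread per gene among all populations, and the arrays of periosteal SSCs (P-SSCs) had a root mean square SD of 1.33. Genes that differ between the P-SSC arrays therefore had large standard errors and could hardly pass. The calls also depend on single arrays. Without BM-SSC array 2, 16 genes were higher (0.0879%) and 42 lower (0.231%), and 36 of the lower genes and 1 of the higher genes were among those of all arrays. Without array 2 of both SSC populations, a fit that assumes the lone BM-SSC array to vary like the remaining populations, 986 genes were higher (5.42%) and 2150 lower (11.8%), and these included all 151. Without CD51+ array 1, and likewise without CD51+ array 2, 0 probe sets passed limma's test, with 439 higher and 1566 lower, and 399 higher and 1617 lower, at an unadjusted p under 0.05. A simple count needs no test: 172 genes (0.945%) were higher and 1082 (5.95%) lower on both BM-SSC arrays than on both CD51+ arrays with 1 log2 unit or more between the nearest arrays. In what follows, genes of that kind are called separated by 1 log2 unit. Counts within the lists below are to be read against these shares of all genes.

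**Figure D1:**
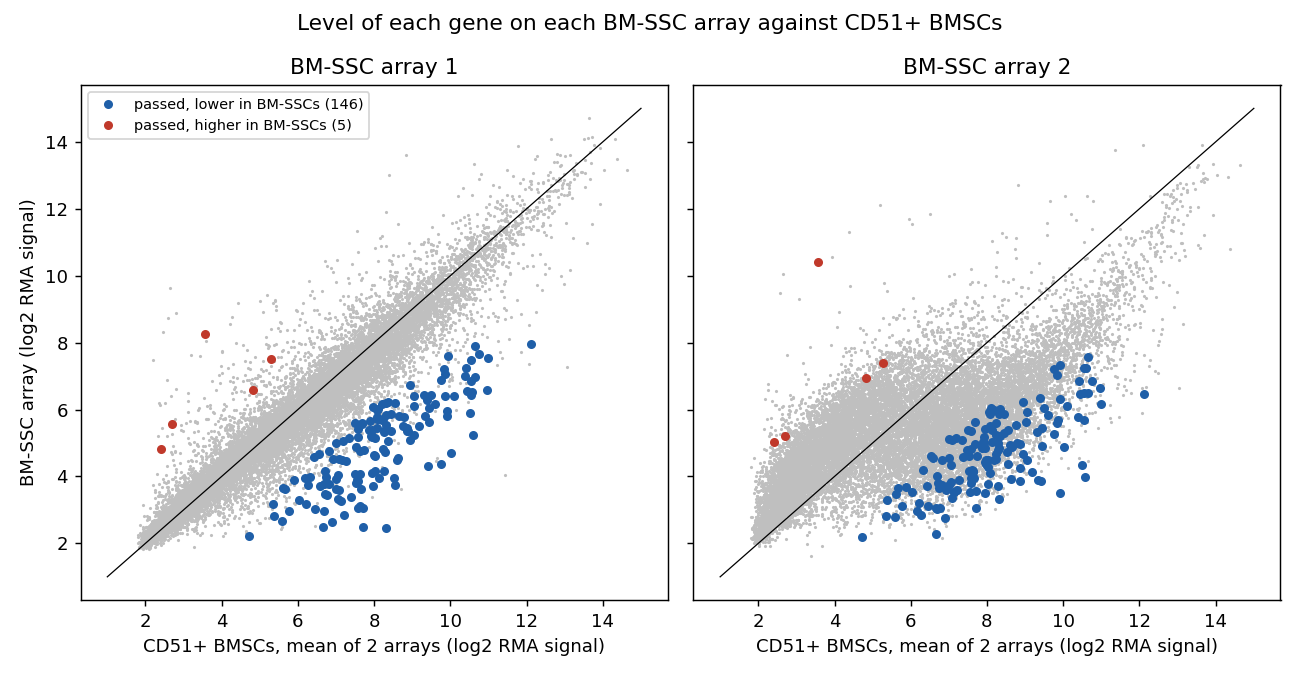
Log2 signal of each of 18193 genes on BM-SSC array 1 (left) and array 2 (right), on the vertical axes, against the mean of the 2 CD51+ BMSC arrays on the horizontal axes; the line marks equal values, and genes that passed limma's test are coloured, 146 lower (blue) and 5 higher (red) in BM-SSCs. The cloud lies along the line on array 1 and is flattened on array 2, whose interquartile range was 1.98 against 3.15 log2 units. The coloured genes keep their side on both, which their selection by a fit on these same arrays favours.

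Some blood cell genes were lower in BM-SSCs, among them receptors and granule proteins of myeloid cells. Of the lists, 3 of 24 pan-leukocyte, 3 of 19 granulocyte and 3 of 23 monocyte and macrophage genes passed as lower, against 0.803% of all genes. Cd14, the lipopolysaccharide co-receptor of monocytes, read 7.95 and 6.48 in BM-SSCs and 12.06 and 12.18 in CD51+ BMSCs, a 30.1-fold difference (-4.91 ± 0.48 log2 units, standard error, adjusted p = 0.0116). The CD51+ arrays also lay above the CD45+ arrays for this gene, which read 8.33 and 8.29. Olfm4, a granule protein of neutrophils, read 4.31 and 3.87 against 9.32 and 9.53, beside 9.39 and 9.73 in CD45+ cells, and had an adjusted p of 0.0044. Itgam, the CD11b chain of the complement receptor of myeloid cells, read 3.90 and 3.53 against 7.57 and 7.52 (adjusted p = 0.00898). Itgal, the leukocyte integrin alpha L chain, read 5.36 and 4.97 against 8.88 and 8.88 (adjusted p = 0.0147). CD45+ cells read Itgam at 8.64 and 8.52 and Itgal at 10.98 and 10.96, above the CD51+ arrays, while for Olfm4 the CD51+ and CD45+ arrays lay at like levels. Clec4e, a receptor of macrophages for mycobacterial glycolipid, read 6.44 and 5.68 against 10.51 and 10.59 (adjusted p = 0.00898). In bulk RNA, fewer cells of a type and less RNA per cell cannot be told apart.

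Of the 146 lower genes, 25 are in any of the lists. Of 24 measured pan-leukocyte genes, 3 passed and all 3 were lower (Cd53, Itgal and Rac2), and 18 were separated by 1 log2 unit, all lower. The list had medians of 6.59 and 5.95 on the BM-SSC arrays, 9.15 and 9.08 on the CD51+ arrays and 5.35 on the single array of Nes+ BMSCs, sorted for Nestin-GFP whether or not they carried the Mx1 reporter. The title of that array places its cells in bone marrow, whereas its source name gives periosteal tissue, and the title was followed here. Among 19 granulocyte genes, Cd177, Mmp8 and Itgam passed as lower and 12 were separated, and among 23 monocyte and macrophage genes, Cd14, Ctss and C1qb passed as lower and 12 were separated. The median difference was -2.18 log2 units for pan-leukocyte, -2.17 for granulocyte and -1.54 for monocyte genes, against -0.09 over all genes, and -1.58, -1.80 and -2.05 with BM-SSC array 1 alone. Without BM-SSC array 2, Cd14 and Itgam passed (adjusted p = 0.0267 and 0.0308) and the other genes of these 3 lists did not, with adjusted p = 0.0587 for Itgal, 0.0875 for Cd53 and 0.123 for Rac2. The most abundant granulocyte transcripts were not absent from BM-SSCs. S100a8, a calcium-binding protein that fills neutrophils, read 13.14 and 13.02 in BM-SSCs against 14.03 and 14.03, and S100a9, its partner, read 13.16 and 13.29 against 14.59 and 14.66, and neither passed. Genes of the lymphocyte, basophil and mast cell lists did not pass by their brightest probe set. In the B cell, T and NK cell, and basophil and mast cell lists 0 genes passed limma's test, and 1 of 15, 1 of 10 and 1 of 11 were separated and lower. Their median differences were 0.03, 0.16 and 0.34, but -0.35, -0.22 and -0.12 with BM-SSC array 1 alone. A second probe set of Hdc, of the basophil and mast cell list, read 6.87 and 5.91 against 9.77 and 9.90. It passed limma's test as lower (adjusted p = 0.0351). The B cell median differed between the CD51+ arrays, at 5.56 and 4.23, where Rag1 read 6.17 and 3.33. For MHC class II presentation, 3 of 8 genes were separated and lower, H2-Aa reading 6.69 and 7.21 against 8.94 and 8.53, and 0 passed.

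Across all 146 lower genes, the population other than the compared pair with the highest level was CD45+ cells for 79 (54.1%), against 33.6% of all genes, Osx+ osteoprogenitors for 23 (15.8% against 19.2%), P-SSCs for 35 (24.0% against 34.5%) and Nes+ cells for 9 (6.16% against 12.7%). The share highest in CD45+ cells among the 1082 genes separated and lower was 58.7%. The genes were selected as low in BM-SSCs, and the selection itself disfavours genes high in the similarly sorted Nes+ cells and P-SSCs. The shares over all genes are therefore not a matched baseline. These shares are a description, and the part that blood cells in the CD51+ sort had in the other differences was not tested.

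**Figure D2:**
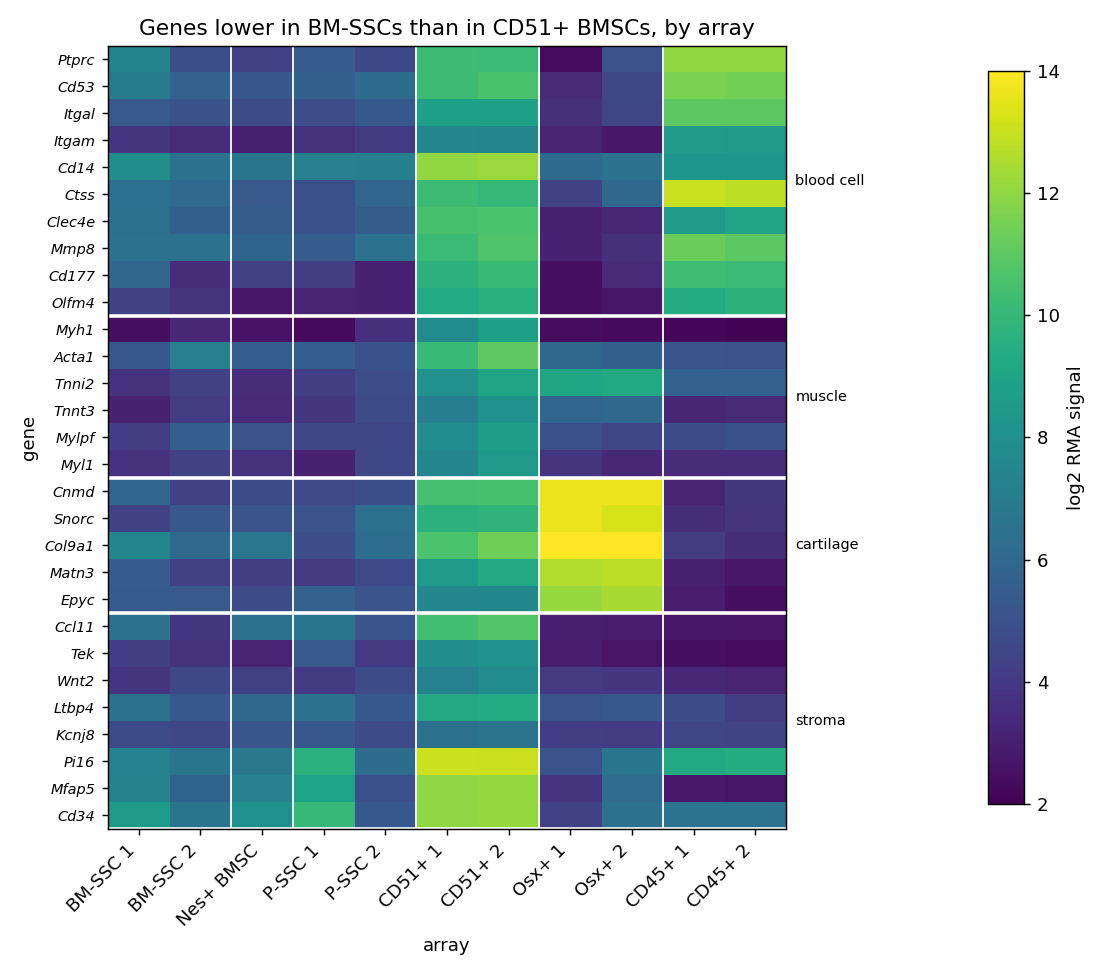
Log2 RMA signal, by colour, of genes lower in BM-SSCs (vertical axis, grouped as blood cell, muscle, cartilage and stroma) on all 11 arrays (horizontal axis, by population). The CD51+ columns are bright in every group, the CD45+ columns share the blood cell block, the Osx+ columns share the cartilage block at up to 14.43 for Col9a1, and no other population reaches the CD51+ level of Myh1. Kcnj8, Pi16, Mfap5, Cd34 and Ptprc are shown although the probe sets drawn for them did not pass.

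A part of the skeletal muscle genes, 7 of 33, passed as lower in BM-SSCs, against 0.803% of all genes. They ran from contractile proteins to a lineage factor. Myh1, the fast IIx myosin heavy chain, read 2.45 and 3.33 in BM-SSCs and 7.79 and 8.83 in CD51+ BMSCs, a 42.9-fold difference (-5.42 ± 0.56 log2 units, standard error, adjusted p = 0.0137). Its level was between 2.09 and 3.60 on the 7 other arrays, so the CD51+ arrays stood alone. A second probe set of Myh1 read 2.06 and 2.78 against 7.58 and 8.53 (adjusted p = 0.00876), while another read 3.10 and 4.52 against 2.79 and 2.92 and did not pass. Transcripts of the myosin heavy chain family are alike in sequence, so the signal may come in part from its other fast members. Acta1, skeletal muscle alpha-actin, read 5.24 and 7.24 against 10.12 and 11.09 (adjusted p = 0.041). Tnni2, the fast skeletal troponin I, read 3.73 and 4.38 against 8.07 and 9.02 (adjusted p = 0.0116), but Osx+ cells read it at 9.04 and 9.27, as high as the CD51+ arrays. Tnnt3, Mylpf and Myl1, which encode fast troponin T and fast myosin light chains, also passed as lower, with differences of -4.02, -3.36 and -3.94.

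Myf5, a transcription factor that commits cells to the muscle lineage, was the regulator among the muscle genes that passed. It read 2.22 and 2.20 in BM-SSCs and 4.94 and 4.49 in CD51+ BMSCs, a low level in both (-2.50 ± 0.35 log2 units, standard error, adjusted p = 0.0343). Myod1, another such factor, read 3.37 and 4.62 against 6.09 and 5.45 and did not pass. Of the 33 muscle genes measured, 7 passed, all lower, 13 were separated by 1 log2 unit, all lower, and 25 passed as lower without array 2 of both SSC populations. Without BM-SSC array 2, Myh1, Acta1, Tnnt3, Tnni2 and Mylpf passed, while Myl1 and Myf5 did not (adjusted p = 0.0963 and 0.099). The list's median was 3.73 and 4.59 on the BM-SSC arrays and 5.45 and 5.45 on the CD51+ arrays, and 32 of 33 genes were lower on BM-SSC array 1 than in the CD51+ mean, while 5 were higher in the mean of both BM-SSC arrays. CD51+ array 2 read higher than array 1 for Myh1, Acta1, Tnni2, Tnnt3, Mylpf and Myl1, by about 1 log2 unit each.

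Promoters of muscle genes were read from RefSeq on the GRCm38.p6 build, as windows of 300 bases that hold the start of transcription near their 3' end, and 26 of the 33 list genes had an entry, among them 5 of the 7 that passed. The motifs searched on both strands were TATAAA, the E-box CANNTG bound by MyoD-type factors, the MEF2 motif and the CArG box bound by serum response factor. Acta1 lies on chr8:123894726-123895025 on the minus strand and Myh1 on chr11:67199852-67200151 on the plus strand. They are shown because they are the actin and the myosin heavy chain that passed, and capitals mark matches of TATAAA, the MEF2 motif and the CArG box.
Acta1: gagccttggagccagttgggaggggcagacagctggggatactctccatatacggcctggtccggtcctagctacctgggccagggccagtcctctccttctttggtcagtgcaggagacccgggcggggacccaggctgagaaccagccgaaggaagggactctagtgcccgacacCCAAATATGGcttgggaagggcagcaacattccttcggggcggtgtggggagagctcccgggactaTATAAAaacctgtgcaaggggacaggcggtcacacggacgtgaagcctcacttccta
Myh1: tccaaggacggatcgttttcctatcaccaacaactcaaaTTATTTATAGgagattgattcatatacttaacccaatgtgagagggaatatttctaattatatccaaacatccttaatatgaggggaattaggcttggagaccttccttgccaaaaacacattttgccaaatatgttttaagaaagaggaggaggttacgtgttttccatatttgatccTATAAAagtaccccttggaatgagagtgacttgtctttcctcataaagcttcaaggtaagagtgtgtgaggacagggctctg
In Myh1 the MEF2 match holds a TATAAA match on the other strand, and a second TATAAA stands closer to the start. In Acta1 a CArG box stands ahead of the TATAAA match, and 2 E-boxes are present. TATAAA was found in 4 of the 5 promoters and in 7 of 26 of the list (26.9%), against 13.6% of all 32851 promoters of this length. The MEF2 motif was found in 4 of 26 (15.4%) against 1.86%, the CArG box in 2 of 26 (7.69%) against 1.63%, and the E-box in 20 of 26 (76.9%) against 72.3%. These matches are a description of letters and not of binding.

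Cartilage genes were lower in BM-SSCs in part of their list. Cnmd, the cartilage protein chondromodulin, read 5.90 and 4.34 in BM-SSCs and 10.48 and 10.53 in CD51+ BMSCs (-5.38 ± 0.53 log2 units, standard error, adjusted p = 0.0116). Snorc, a proteoglycan of cartilage, read 4.38 and 5.28 against 9.71 and 9.80 (adjusted p = 0.0145). Osx+ cells read both genes higher still, Cnmd at 13.65 and 13.63 and Snorc at 13.63 and 13.27. Col9a1, Matn3 and Epyc, all of the cartilage matrix, also passed as lower, with differences of -4.13, -4.02 and -2.20. A second probe set of Col9a1 read 5.5 and 7.0 against 6.6 and 7.4, which overlap, and did not pass. A second one of Matn3 read 3.9 and 2.0 against 7.0 and 7.4 and passed. Without BM-SSC array 2, Cnmd and Snorc passed (adjusted p = 0.0308 and 0.041), and Col9a1, Matn3 and Epyc did not (0.166, 0.0706 and 0.137). Of 26 chondrocyte genes measured, 5 passed, all lower, and 9 were separated by 1 log2 unit, all lower, against 0.803% and 5.95% of all genes. The chief cartilage transcripts were present in both populations. Col2a1, the main cartilage collagen, read 10.28 and 8.46 in BM-SSCs against 11.69 and 12.32 and did not pass. Sox9, the master factor of cartilage, read 8.36 and 5.31 against 7.32 and 7.54, so that BM-SSC array 1 lay above the CD51+ arrays and array 2 below. Without array 2 of both SSC populations, Sox9 passed as higher in BM-SSCs (0.93 log2 units, adjusted p = 0.0143), where 6 genes of the list passed as higher and 11 as lower.

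Single stromal genes set the populations apart while most fibroblast genes did not pass. Ccl11, the eosinophil attractant eotaxin, read 6.51 and 3.97 in BM-SSCs and 10.36 and 10.80 in CD51+ BMSCs (-5.34 ± 0.82 log2 units, standard error, adjusted p = 0.0425). Neither CD45+ cells nor Osx+ cells expressed it above 2.98. Tek, the angiopoietin receptor Tie2 of endothelial cells and some perivascular cells, read 4.17 and 3.78 against 7.91 and 8.12 (adjusted p = 0.0201). Cd248, the stromal antigen endosialin, read 6.97 and 7.56 against 10.55 and 10.73 (adjusted p = 0.0358). Wnt2, a Wnt ligand, read 3.81 and 4.62 against 7.25 and 7.80 (adjusted p = 0.026), and Ltbp4, which binds latent TGF-beta in the matrix, read 6.43 and 5.31 against 9.23 and 9.39 (adjusted p = 0.0439). Tek, Ltbp4 and Cd248 did not pass without BM-SSC array 2 (adjusted p = 0.0843, 0.155 and 0.0909), nor did Ccl11 (adjusted p = 0.0869), while Wnt2 did (adjusted p = 0.0482).

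Pi16 marks fibroblasts of the adventitia around vessels and had the largest difference of the fibroblast list. It read 7.26 and 6.64 in BM-SSCs against 13.06 and 13.03, a difference of -6.10 (standard error 1.01) that just missed the threshold (adjusted p = 0.0552). Other genes of adventitial fibroblasts stood likewise without passing by their brightest probe set. The microfibril gene Mfap5 read 7.36 and 5.89 against 11.99 and 12.12, and Cd34 read 8.52 and 6.66 against 12.00 and 12.11. A second probe set of Mfap5 read 6.32 and 5.52 against 10.45 and 10.68 and passed limma's test as lower (adjusted p = 0.0461). The list counts take the brightest probe set of each gene. Of 28 genes of fibroblasts, tendon and periosteum, 0 passed limma's test, 9 were separated by 1 log2 unit and lower, and without array 2 of both SSC populations 4 passed as higher and 10 as lower. Dcn, the matrix proteoglycan decorin found in all fibroblasts, read 14.09 and 12.95 against 14.28 and 14.38. The standard errors of Mfap5 and Cd34, 1.29 and 1.43, take in the spread between the P-SSC arrays. Those arrays read Mfap5 at 8.94 and 4.94 and Cd34 at 10.03 and 5.31.

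Genes of the bone lineage were higher in BM-SSCs by level, but none passed with all arrays. Mmp13, the collagenase of osteoblasts and hypertrophic chondrocytes, read 13.62 and 12.71 in BM-SSCs against 8.89 and 8.77 in CD51+ BMSCs, and Dmp1, a matrix protein of osteocytes, read 13.02 and 11.28 against 8.28 and 8.49. Sp7, the osteoblast transcription factor Osterix, read 8.15 and 7.11 against 5.05 and 5.26, a difference of 2.48 (standard error 0.42, adjusted p = 0.0592, and 0.0538 without BM-SSC array 2). Col1a1, the chief collagen of bone, read 13.34 and 12.39 against 10.53 and 10.70, and Ibsp, bone sialoprotein, read 12.63 and 11.67 against 10.29 and 10.36. For each of these 5 genes the BM-SSC arrays lay above both CD51+ arrays, and the Nes+ array read 7.71 for Sp7 and 11.50 to 13.01 for the other 4. Of 23 osteoblast and osteocyte genes, 0 passed limma's test in either direction, 5 were separated and higher and 1 lower (Pdpn), and 16 passed as higher and 1 as lower without array 2 of both SSC populations. The median difference was 0.94 log2 units, and 1.70 with BM-SSC array 1 alone, where 21 of 23 genes were above the CD51+ mean. The standard errors of Mmp13 and Dmp1, 2.11 and 1.23, take in the spread between the P-SSC arrays, which read Mmp13 at 11.86 and 3.75 and Dmp1 at 7.10 and 2.75.

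Tnfsf11, the osteoclast-inducing ligand RANKL, read 8.77 and 5.75 in BM-SSCs against 4.28 and 4.25. It passed as higher without BM-SSC array 2 (adjusted p = 0.041) but not with all arrays (adjusted p = 0.267), as did Vdr, the vitamin D receptor, which read 9.10 and 6.71 against 5.49 and 5.34, and Col13a1, a membrane collagen, at 9.23 and 6.72 against 5.42 and 5.40. Osx+ cells read Vdr at 8.27 and 8.47 and Tnfsf11 at 7.01 and 6.97. For all of these genes both BM-SSC arrays were above both CD51+ arrays.

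Fabp7, the brain-type fatty acid binding protein of radial glia and immature glial cells, was the gene with the largest difference among the 5 that passed as higher. It read 8.26 and 10.40 on the BM-SSC arrays, 3.48 and 3.63 on the CD51+ arrays and 8.45 on the Nes+ array (5.77 ± 0.68 log2 units, standard error, 54.7-fold, adjusted p = 0.0203). Osx+ cells read 5.46 and 5.88 and CD45+ cells 3.18 and 3.18, so the 3 arrays sorted on Nestin-GFP were the highest. It was the gene that also passed as higher without BM-SSC array 2 (4.71 log2 units, adjusted p = 0.0418). Its promoter, on chr10:57784673-57784972 on the plus strand of GRCm38.p6 in RefSeq, is shown for this reason and holds 2 E-boxes and no TATAAA, MEF2 or CArG match.
Fabp7: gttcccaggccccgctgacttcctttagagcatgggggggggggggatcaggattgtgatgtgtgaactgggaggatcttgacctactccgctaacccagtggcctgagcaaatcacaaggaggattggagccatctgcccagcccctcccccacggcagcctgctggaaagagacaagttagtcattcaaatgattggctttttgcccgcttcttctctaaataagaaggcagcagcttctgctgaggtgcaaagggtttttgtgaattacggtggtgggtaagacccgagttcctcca
The other genes that passed as higher had lower levels. Elavl4, a neuronal RNA-binding protein, read 4.83 and 5.02 against 2.45 and 2.35 (adjusted p = 0.0188). Gdap1, a mitochondrial protein of neurons, read 5.55 and 5.22 against 2.86 and 2.53 (adjusted p = 0.0392). Snhg11, a non-coding RNA, read 6.60 and 6.95 against 4.83 and 4.81 (adjusted p = 0.0446). Angpt4, an angiopoietin that binds Tie2, read 7.52 and 7.38 against 5.14 and 5.42 and 7.61 on the Nes+ array (adjusted p = 0.0475). Further probe sets of Elavl4, Gdap1, Snhg11 and Angpt4 also read higher in the BM-SSC mean, and 0 of them passed limma's test. For Snhg11 this mean rested on array 1, as the further probe set read 6.04 and 2.31 against 2.25 and 2.13.

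Some neuronal transcripts passed as higher in BM-SSCs once array 2 was left out. Nefl, the neurofilament light chain, read 9.62 on array 1 and 5.70 on array 2, against 2.69 and 2.60 in CD51+ BMSCs. Cartpt, a neuropeptide precursor, read 8.31 and 3.30 against 2.43 and 2.52. Snap25, part of the synaptic vesicle fusion complex, read 7.49 and 3.45 against 2.14 and 2.26. Tubb3, neuronal tubulin, read 8.05 and 3.54 against 3.63 and 3.54, and Scg2, a protein of secretory granules, read 7.63 and 3.51 against 3.09 and 3.31. On array 2 the last 2 genes lay within 0.5 log2 units of the CD51+ arrays. All 5 passed without BM-SSC array 2 (adjusted p = 0.0164, 0.0308, 0.0164, 0.041 and 0.0286 in the order given) and none with all arrays. They were chosen by that fit, which favours genes high on array 1. Their lower values on array 2 are therefore not an independent finding, and what set those values was not tested. Slc17a6, a vesicular glutamate transporter, and Pirt, a membrane protein of sensory neurons, were also among the 16 genes that passed as higher in that fit, at 6.19 and 3.24 and at 6.62 and 3.91 on the BM-SSC arrays. The Nes+ array read Nefl at 5.19, above the CD51+ arrays, and Cartpt, Snap25, Tubb3 and Scg2 at 2.58, 3.44, 3.07 and 3.88. Of 22 neural and Schwann cell genes, 1 (Fabp7) passed with all arrays and 4 as higher without BM-SSC array 2. Markers of Schwann cells ran in different ways between the BM-SSC arrays. Sox10, the Schwann cell factor, read 5.46 and 6.85 against 5.67 and 5.50, S100b read 7.66 and 7.99 against 7.23 and 7.04, and Pmp22, a myelin protein, read 10.30 and 8.12 against 11.50 and 11.40. Whether neurons or nerve fibres were in the sorted cells was not tested.

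**Figure D3:**
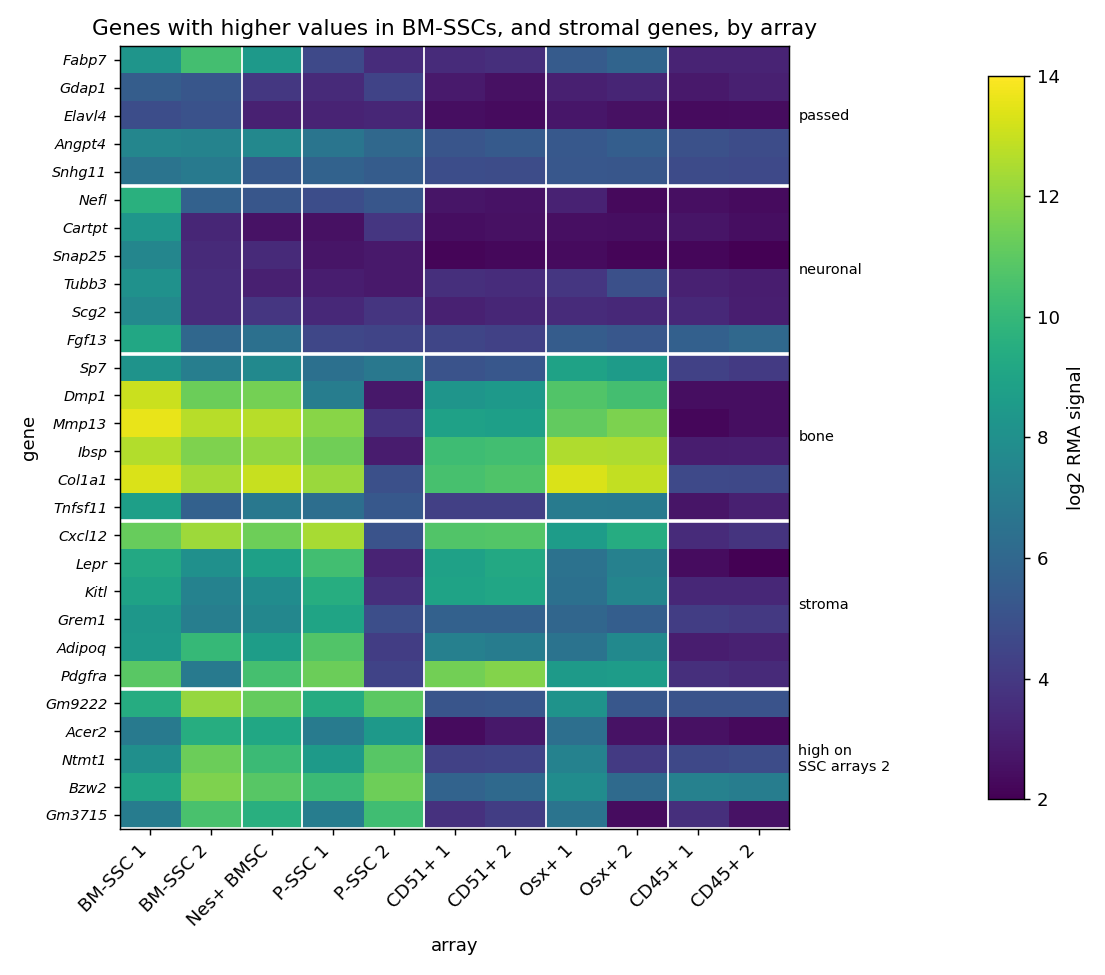
Log2 RMA signal, by colour, of genes higher in BM-SSCs and of stromal genes (vertical axis, in 5 groups) on all 11 arrays (horizontal axis). The neuronal block, chosen from the fit without array 2, is brightest on BM-SSC array 1, Fabp7 on both BM-SSC arrays and the Nes+ array, and the last block on BM-SSC array 2, the Nes+ array and P-SSC array 2; the 5 genes of the first block passed limma's test with all arrays and the others did not.

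A different set of genes was high on BM-SSC array 2. The predicted gene Gm9222 read 9.41 on BM-SSC array 1, 12.12 on array 2 and 5.17 and 5.23 in CD51+ BMSCs. Acer2, an alkaline ceramidase, read 6.89 and 9.49 against 2.37 and 2.75, and Bzw2, a regulator of translation initiation, read 8.99 and 11.70 against 5.82 and 6.09. Not all other probe sets showed this gap. A second one of Acer2 read 4.11 and 4.65 against 4.15 and 4.35. A second one of Bzw2 read 7.03 and 6.83 against 7.93 and 7.52. Another one of Bzw2 went the same way as the brightest, at lower levels. It read 4.11 and 5.58 against 3.23 and 3.27 and did not pass. These genes were also high on the Nes+ array (11.15, 9.15 and 10.87) and on P-SSC array 2 (10.99, 8.43 and 11.37), the array of the study with the narrowest range, and in none did the difference pass. P-SSC array 1, with a bioB signal of 9.13, read them at 9.40, 6.98 and 10.16, and Osx+ array 1 at 8.17, 6.40 and 7.83, against 5.25, 2.57 and 6.14 on Osx+ array 2. Among the 172 genes separated and higher, 47 read 1 log2 unit or more higher on array 2 than on array 1 and 36 the reverse. The part of the bioB signal and of the signal range in these values was not tested.

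Niche genes were measured in both populations, and none passed. Cxcl12 read 11.21 and 12.23 in BM-SSCs against 10.75 and 10.80, Kitl, the stem cell factor, read 8.92 and 7.30 against 8.94 and 9.11, and Lepr, the leptin receptor of perivascular stroma, read 9.24 and 8.03 against 8.87 and 9.26. A second probe set of Cxcl12 read 11.04 and 11.69 against 8.83 and 8.53 and did not pass. Grem1, a BMP antagonist of bone marrow progenitors, read 8.37 and 7.12 against 5.72 and 5.73, Adipoq, adiponectin, read 8.44 and 10.05 against 7.22 and 7.03, and Fabp4, a fatty acid binding protein of adipocytes and endothelium, read 10.63 and 11.11 against 8.49 and 9.02. Of 24 niche and adipogenic genes these 3 were separated and higher, 0 were separated and lower and 0 passed limma's test. The median difference of the list was -0.53, and 0.16 with BM-SSC array 1 alone, against -0.09 and -0.03 over all genes. The standard errors of Cxcl12, Lepr, Adipoq and Fabp4, 1.93, 1.89, 1.78 and 1.83, take in the spread between the P-SSC arrays. Those arrays read Cxcl12 at 12.43 and 5.06 and Lepr at 10.34 and 3.18. Genes with such a spread could hardly pass, whatever the 4 compared arrays read. A test that misses its threshold with 2 arrays a group does not show equal levels.

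Endothelial genes other than Tek read higher in BM-SSCs where separated, without passing. Kdr, the main VEGF receptor, read 7.72 and 7.58 against 5.89 and 6.14, Cdh5, the cadherin of endothelial junctions, read 6.94 and 6.46 against 4.76 and 4.99, and Stab2, a scavenger receptor of sinusoidal endothelium, read 6.01 and 6.02 against 4.19 and 3.93. Of 23 endothelial genes 7 were separated and higher, 1 was separated and lower, and Tek was the gene that passed. The median difference of the list was 0.76, and 1.10 with array 1 alone. In the list of pericytes and smooth muscle 0 of 20 genes passed limma's test and Kcnj8, a potassium channel of pericytes, came closest, at 4.67 and 4.54 against 6.44 and 6.60 (adjusted p = 0.0518).

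A part of the cell cycle genes read lower on the BM-SSC arrays. Ccne2, cyclin E2, was the gene of this list that passed, at 4.57 and 3.70 against 6.43 and 6.42 (adjusted p = 0.0452), and 9 of 31 genes were separated by 1 log2 unit, all lower. Mki67, the proliferation antigen, read 8.54 and 7.24 against 9.38 and 9.07, and Top2a, the topoisomerase of dividing cells, read 7.08 and 5.58 against 8.58 and 8.18. Their levels in CD45+ cells were higher than in either population, at 11.01 and 10.81 and at 10.83 and 10.78. Erythroid genes behaved alike in direction: 3 of 13 were separated and lower, 0 passed limma's test, and Alas2, the first enzyme of haem synthesis in red cells, read 6.15 and 5.57 against 9.58 and 8.80. Interferon response genes, of interest because pIpC induces interferon, showed 0 of 25 passing and a median difference of -0.40. Mx1 itself, whose promoter drives the Cre, read 4.92 and 4.28 against 3.64 and 3.48 and did not pass. Ribosomal protein genes, with medians of 12.41 and 11.77 against 12.74 and 12.61, and housekeeping genes, with a median difference of -0.94 and of -0.19 with array 1 alone, also read lower on BM-SSC array 2, and 0 of either list passed limma's test.

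In the signalling lists single genes passed. Of 42 Wnt ligands, receptors and antagonists, Wnt2 passed as lower, 2 were separated and higher (Wnt16 and Wnt8b) and 7 separated and lower, among them the antagonists Dkk2 and Sfrp1, which read 5.56 and 4.71 against 7.90 and 8.26 and 5.97 and 6.02 against 7.88 and 8.42. Wnt16 read 6.67 and 5.90 against 4.08 and 4.63 and 6.98 on the Nes+ array (adjusted p = 0.0972). Other probe sets of Wnt8b were not separated by 1 log2 unit and read low, at 2.97 and 3.93 against 2.78 and 2.79, and at 2.77 and 3.44 against 3.04 and 3.09. Ltbp4 was the gene that passed of 35 BMP and TGF-beta genes, with 1 separated and higher and 2 separated and lower. The share separated and lower lay near the 5.95% of all genes. Angpt4 was the gene that passed of 18 vessel and PDGF ligands, and it stands beside the lower Tek as a ligand and its receptor on opposite sides of the comparison. In the osteoclast list of 12 genes and the early response list of 12 genes 0 passed limma's test. Ctsk, the collagen-degrading protease of osteoclasts, read 10.94 and 8.64 against 9.90 and 9.90, and passed as higher without array 2 of both SSC populations (1.04 log2 units, adjusted p = 0.00549).

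**Figure D4:**
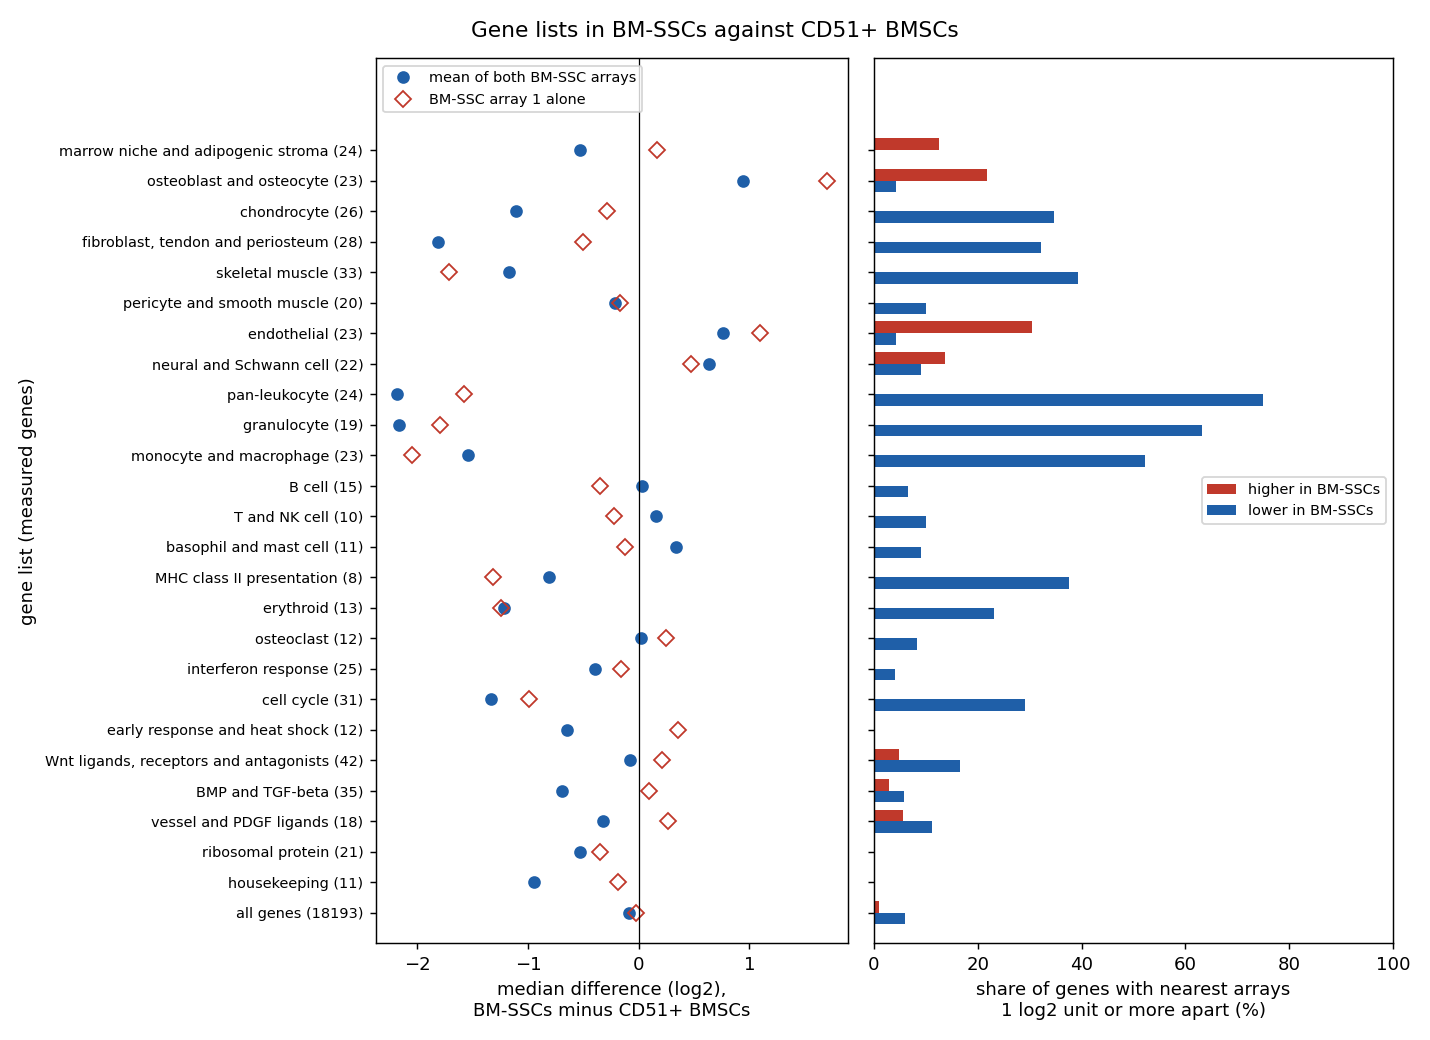
Left, median difference between BM-SSCs and CD51+ BMSCs (log2 units, horizontal axis) of each gene list other than the sort markers (vertical axis, number of measured genes in brackets), for the mean of both BM-SSC arrays (circles) and for array 1 alone (diamonds); right, the percentage of each list separated by 1 log2 unit or more, higher (red) or lower (blue) in BM-SSCs. Pan-leukocyte, granulocyte and monocyte genes have the longest lower bars, and of the lists drawn osteoblast and endothelial genes have the longest higher bars, against 0.945% and 5.95% of all genes.

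**Figure D5:**
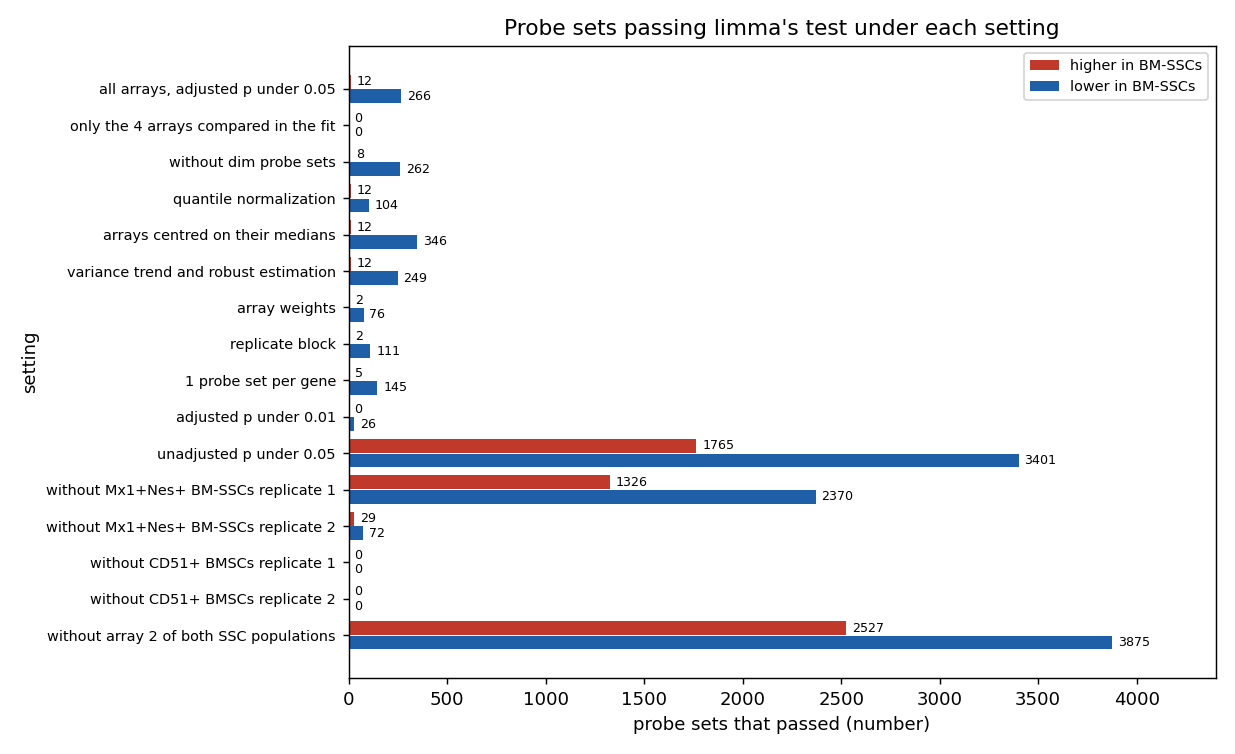
Number of probe sets that passed limma's test (horizontal axis), higher (red) and lower (blue) in BM-SSCs, under each setting (vertical axis). The counts run from 0 without either CD51+ array or with 4 arrays in the fit to 2527 and 3875 without array 2 of both SSC populations, against 12 and 266 with all arrays.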

How the data were processed

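RNA of 6 sorted mouse cell populations was labelled and hybridised to Affymetrix mouse expression arrays, and 2 arrays of BM-SSCs and 2 of CD51+ BMSCs are compared here. The authors deposited log2 values made by robust multichip average (RMA), a method of background subtraction, quantile normalization and summary of probes into probe sets. The methods name Partek GS, R and limma, with versions not given in the sources used here. Scanner files were not used here. Since quantiles are equalised before probes are combined, a weak array can keep a narrow range.

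No further normalization was applied. After 64 control probe sets were dropped, 45037 were tested with no filter on signal, of which 34945 carry 1 gene symbol in the platform annotation, 932 several and 9160 none. The brightest probe set on average stood for each gene (18193 genes), and matching to RefSeq by gene identifier changed 0 symbols. With limma 3.58.1 in R 4.3.3, the model held a mean for every population and used the 11 arrays (5 residual and 2.65 prior degrees of freedom), and p-values were adjusted by Benjamini-Hochberg over all probe sets. Differences are BM-SSCs minus CD51+ BMSCs in log2 units. The fit was tested on simulated data with equal spread on all arrays, which does not bear on the unequal spread of the real arrays. The number of arrays limits the precision. No arrays held identical values.

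The genes named are those of the sort markers, for either direction up to 15 genes that passed, ranked by size of difference (filled with genes of the widest gap that did not pass), up to 10 per direction without BM-SSC array 2, and from each of 26 lists the first 2 and up to 4 with the largest differences. Members and lists were chosen with earlier results of these data known, and some further genes were named after their values were seen. A list is described by counts and its median, without a set test. Alternatives were other samples in the fit, filters, quantile normalization, median centring, array weights, a replicate block and leaving out arrays. Promoters came from RefSeq (GRCm38.p6).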

Additional observations from a re-analysis of the deposited data

How the results depend on the processing

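Of 12 higher and 266 lower probe sets, 8 and 262 passed without dim probe sets, 12 and 346 with arrays centred on their medians, 12 and 249 with a variance trend, and 12 and 266 with a minimum of 2-fold. With quantile normalization 12 and 104 passed (10.3% higher, against 4.32%), with array weights 2 and 76, with 1 probe set per gene 5 and 145, at an adjusted p under 0.01 0 and 26, and at an unadjusted p under 0.05 1765 and 3401. With only the 4 arrays compared 0 passed limma's test in either direction (979 and 2688 at an unadjusted p under 0.05; 2 residual degrees of freedom). Leaving out an array of the compared populations gave 0 to 1326 higher and 0 to 2370 lower, the most without BM-SSC array 1 and 0 without either CD51+ array, and without BM-SSC array 2 29 and 72. When array 2 was dropped from both SSC populations, 2527 and 3875 passed. The cause was not tested.

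The array numbers are shared by the populations, but the deviations of the arrays from their means did not correlate between BM-SSCs and CD51+ BMSCs (r = -0.000863). Between BM-SSCs and P-SSCs, which also set the spread in the fit, they did (r = 0.784), and for the other pairs of populations r ran from -0.267 to 0.0115. No source ties the numbers to a shared batch, and they were not taken as pairs. With the replicate block 2 and 111 probe sets passed, and 20 of the 33 named genes that passed did so.

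Of these 33 genes, 30 also passed with the variance trend, 28 with median centring, 31 without dim probe sets, 16 with quantile normalization, 14 with array weights, 16 without BM-SSC array 2, 33 without BM-SSC array 1 and 33 without array 2 of both SSC populations. They kept their direction in all of these. Sox9 and Ctsk, uncalled at -0.59 and -0.11, read 0.93 and 1.04 and passed without array 2 of both SSC populations. The median difference over all probe sets was 0.15, -0.04 after centring, 0.03 after quantile normalization and -0.26 without dim probe sets.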

Other observations

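Some single genes that passed as lower in BM-SSCs encode receptors or secreted factors of innate immunity. They were picked after their values were seen and stand for no list. Fpr2, a formyl peptide receptor of neutrophils, read 6.60 and 6.63 on the BM-SSC arrays, 10.96 and 10.96 on the CD51+ arrays and 11.24 and 11.29 on the CD45+ arrays (adjusted p = 0.00876 by limma's test). Ccr1, a chemokine receptor of myeloid cells, read 5.23 and 4.50 against 8.81 and 9.28 (adjusted p = 0.0116), and Trem1, which amplifies inflammatory signals in myeloid cells, read 7.67 and 6.85 against 10.59 and 10.91 (adjusted p = 0.0341). Trem1 was higher on the CD51+ arrays than on the CD45+ arrays (8.96 and 9.11), and so was Il1r2, the decoy receptor of interleukin 1, at 10.44 and 10.86 against 8.09 and 8.71 in CD45+ cells and 7.90 and 6.49 in BM-SSCs. Whether CD51+ and CD45+ cells differ in these genes was not tested. Il1b, interleukin 1 beta itself, read 7.60 and 7.33 in BM-SSCs against 9.63 and 10.22 in CD51+ BMSCs and 9.64 and 9.93 in CD45+ cells (adjusted p = 0.0347). Without BM-SSC array 2, Fpr2 and Ccr1 passed (adjusted p = 0.0308 and 0.0464), and Trem1, Il1r2 and Il1b did not (0.12, 0.0803 and 0.106).

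Further single genes were picked in the same way. Krtdap, a protein of keratinizing skin, read 3.06 and 3.58 in BM-SSCs against 7.81 and 7.59, and lay between 2.62 and 3.67 on the 7 arrays of the other populations (adjusted p = 0.00876). Hoxc13 and Hoxb13, homeobox genes of the posterior body and of hair, read 4.08 and 4.78 against 7.45 and 7.53 and 3.65 and 3.48 against 5.88 and 5.33 (adjusted p = 0.0317 and 0.0461), and the other populations read Hoxc13 at 3.59 to 5.42. Has2, a hyaluronan synthase, read 4.48 and 4.95 against 8.45 and 8.76, beside 7.27 and 7.23 in Osx+ cells (adjusted p = 0.0203). Scn7a, a sodium channel of glia and other cells, read 5.69 and 4.48 against 8.11 and 8.28 (adjusted p = 0.034). Without BM-SSC array 2, Krtdap passed (adjusted p = 0.0267), and Hoxc13, Hoxb13, Has2 and Scn7a did not (0.0608, 0.134, 0.0634 and 0.0608). Prg2, the eosinophil major basic protein, read 3.63 and 6.18 against 8.67 and 8.73, beside 12.43 and 12.80 in CD45+ cells, and passed without BM-SSC array 2 (adjusted p = 0.0286) but not with all arrays (adjusted p = 0.0973).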
